A study of Mus musculus with 6 samples.

Results

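The genes described here are 9 nuclear genes of the mitochondrial unfolded protein response, read out of 46983 gene identifiers counted in mouse cerebellum. They were taken by name, not by their values: the matrix chaperones Hspd1, Hspe1, Hspa9 and Trap1, the matrix proteases Lonp1, Clpp and Clpx, and the secreted mitokines Gdf15 and Fgf21. The question was whether the higher transcript level of Atf5 in the group labelled Slc7a5-KO goes with mitochondrial stress. The 6 libraries came from the cerebellum of C57BL/6J mice aged 60 days. They are numbered as replicates within each group, and no label says whether each is a separate animal, so the p-values measure the spread between these libraries. The 3 libraries labelled WT came from mice with Tie2-Cre and 1 floxed Slc7a5 allele (Tie2-Cre Slc7a5 fl/+), and the 3 labelled Slc7a5-KO from mice with Tie2-Cre and both alleles floxed (Tie2-Cre Slc7a5 fl/fl). Both groups thus carried the recombinase, which the Tie2 promoter drives in endothelial and blood lineages, while the libraries came from whole cerebellum. No group lacking Cre or lacking a floxed allele was among these libraries.

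Mitochondria import nearly all of their proteins unfolded, and chaperones in the matrix fold them while proteases remove those that fail. When unfolded protein builds up there, cells can raise transcription of the nuclear genes for these chaperones and proteases. This is called the mitochondrial unfolded protein response, and in mammals ATF5, ATF4 and CHOP (the product of Ddit3) have been tied to it. GDF15 and FGF21 are hormones that cells with failing mitochondria can secrete, and both genes are known targets of the ATF4 and CHOP branch, which amino acid shortage also engages.

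Short stretches upstream of 4 genes are shown because they hold letters that transcription factors of stress responses are known to bind. The heat shock element among them is a motif of heat shock factors, not of ATF5, ATF4 or CHOP. The sequences are RefSeq promoter windows on GRCm38.p6, read 5′ to 3′ on the strand of the named gene, with the matched letters in capitals. Hspd1 and Hspe1 lie head to head, so their upstream windows share bases. Both Hspe1 stretches also lie inside exons of annotated Hspd1 transcripts on the opposite strand.
Hspe1, chr1:55087937-55087966, plus strand, CHOP core: acgccggggcccTGCAATctgcatgcggcg
Hspe1, chr1:55088053-55088082, plus strand, heat shock element: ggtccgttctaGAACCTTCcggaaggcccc
Fgf21, chr7:45615611-45615640, minus strand, C/EBP-ATF composite element: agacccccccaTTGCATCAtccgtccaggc
Trap1, chr16:4077839-4077868, minus strand, cAMP response element: gtcgcgcgccaTGACGTCActgagccgccc
Chac1, chr2:119351038-119351067, plus strand, C/EBP-ATF composite element: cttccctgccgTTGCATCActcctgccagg

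4 motifs were searched on both strands in the 250 bases before each annotated start. They were TGATGNAA (C/EBP-ATF composite element), TGCAAT (CHOP core), GAANNTTC (heat shock element) and TGACGTCA (cAMP response element). The composite element and the CHOP core can overlap, as they do in Fgf21. Of 32851 promoter windows, the composite element was found in 3.45%, the CHOP core in 7.32%, the heat shock element in 6.69% and the cAMP response element in 1.55%. 8 of the 9 members had a window in the table, Hspa9 being the one without. Matches were found for 4 of those 8. The CHOP core and the heat shock element matched in the region that Hspd1 and Hspe1 share, the composite element and CHOP core in Fgf21, and the cAMP response element in Trap1. No match was found in the windows of Lonp1, Clpp, Clpx and Gdf15. Chac1, no member and picked with earlier results of these data known, had the same composite letters as Fgf21. Because of that choice the shared letters are no evidence of a link. A match is a run of letters and no evidence of binding.

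Slc7a5 encodes LAT1, the transporter of large neutral amino acids that the fl/fl mice were bred to lose in the Tie2 lineage. Its transcript was no lower on average in the group labelled as knockout. In CPM, reads of a gene scaled to a common library size by TMM, WT replicates 1 to 3 had 72.0, 66.3 and 43.2 and Slc7a5-KO replicates 1 to 3 had 164, 59.4 and 118 (edgeR adjusted p = 0.84). Leaving out Slc7a5-KO replicate 2, the lowest of that group, gave a log2 fold change of 1.22 with an edgeR adjusted p of 0.010. Higher and lower are therefore given by label, since the targeted gene does not check those labels. Libraries held 13.4 to 34.2 M (mega) reads in genes, and Slc7a5-KO replicate 3 was the shallowest. Defining markers of cerebellar neurons and glia were detected in all 6 libraries. By Xist and Y-linked genes, WT replicate 2 and Slc7a5-KO replicates 1 and 3 read as female and the other 3 libraries as male.

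None of the 9 members passed the test between the groups. All 9 passed the filter on low counts. With edgeR's quasi-likelihood test and Benjamini-Hochberg adjustment over 16851 genes, 0 of 9 had an adjusted p under 0.05, and 0.0475% of all genes did. At an unadjusted p under 0.05 the count was again 0 of 9, with 6.22% of all genes. DESeq2 gave 0 of 9 at an adjusted p under 0.05, but it left 2 members without an adjusted p, and those could not be called. Of the 13583 genes with an adjusted p, DESeq2 called 0.339%. At an unadjusted p under 0.05 it gave 0 of 9, with 6.64% of all genes. limma-voom also gave 0 of 9 at an adjusted p under 0.05, where it called 10 of the 16851 genes. At an unadjusted p under 0.05 limma-voom gave 0 of 9, and its share of all genes was not computed. The 3 libraries of one group lay wholly above the other in 0 of 9 members, while 11.5% of all genes separated the groups. The log2 fold change was above 0 in 5 members and below 0 in 4. Its median was 0.03, and it was 0.0022 over all genes tested.

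Atf5, the transcription factor around which these genes were listed, rose in the same libraries. WT replicates 1 to 3 had 25.2, 24.5 and 19.5 CPM, and Slc7a5-KO replicates 1 to 3 had 91.0, 61.9 and 71.8 CPM. Each Slc7a5-KO library was above each WT library. Its log2 fold change was 1.70, with a 95% interval from 1.33 to 2.06 (edgeR adjusted p = 0.00017). The 7 members that stayed above 1 CPM in every library all had intervals that ended below that lower bound. The highest of their upper bounds was 0.96, or 1.95-fold, and belonged to Hspe1. Taken singly and centred on their own means over the 6 libraries, these members spanned 0.26 (Clpp) to 0.85 (Hspe1) on the log2 scale from lowest to highest library, with both groups overlapping in each. Atf5 was the gene around which the list was drawn up, so its own rise is a premise here and not a result.

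**Figure D1:**
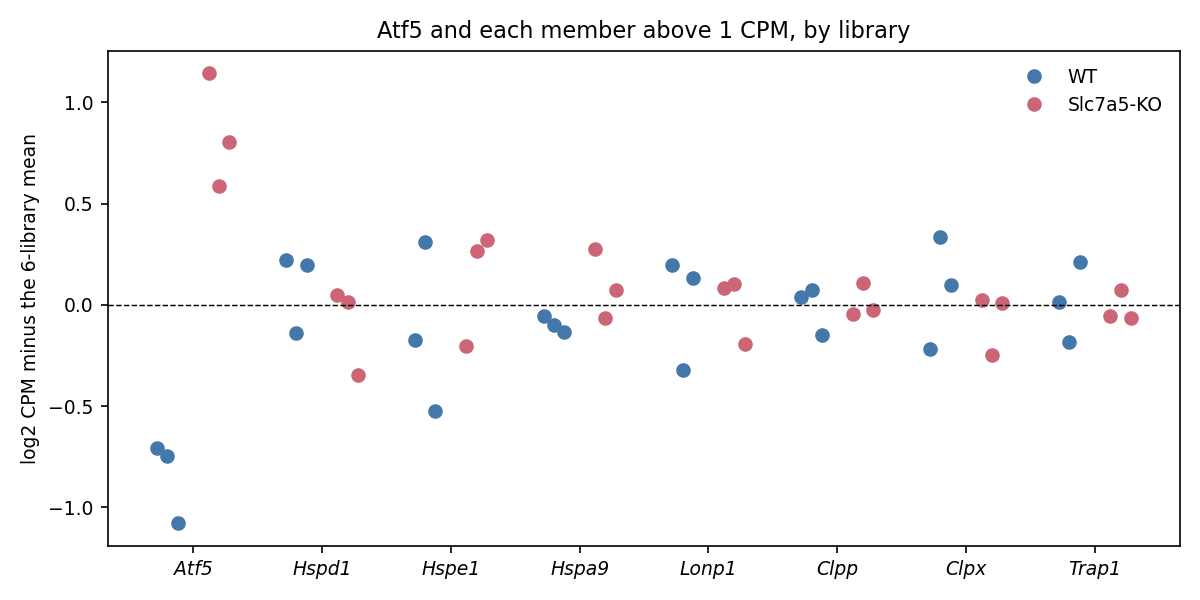
Log2 CPM minus the gene's own 6-library mean for Atf5 and for each of the 7 members above 1 CPM, 1 point per library, WT in blue and Slc7a5-KO in red. Atf5 lies between -1.08 and -0.71 in WT and between 0.59 and 1.14 in Slc7a5-KO, while the groups overlap in each of the 7 members, of which Hspe1 spreads widest, from -0.53 to 0.32.

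The chaperonin pair did not differ between the groups beyond the spread of the libraries. Hspd1 (chromosome 1, 55077835 to 55088243, minus strand, GRCm38) encodes HSP60, the barrel in which matrix proteins fold. WT replicates 1 to 3 had 19.4, 15.1 and 19.1 CPM, and Slc7a5-KO replicates 1 to 3 had 17.2, 16.8 and 13.1 CPM. The ranges overlapped, with the lowest value in Slc7a5-KO replicate 3 and the next in WT replicate 2. The log2 fold change was -0.18 ± 0.22 (SE), with a 95% interval from -0.64 to 0.27 (edgeR adjusted p = 0.96). With 1 library left out it ranged from -0.28 (without WT replicate 2) to -0.07 (without Slc7a5-KO replicate 3).

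Hspe1 (chromosome 1, 55088132 to 55091307, plus strand) encodes HSP10, the lid of that barrel. Its levels were 4.83, 6.79 and 3.77 CPM in WT against 4.74, 6.58 and 6.84 CPM in Slc7a5-KO. WT replicate 2 lay among the higher libraries and Slc7a5-KO replicate 1 among the lower ones, so the groups overlapped. On the log2 scale the change was 0.23 ± 0.35 (SE), with an interval from -0.49 to 0.96 (edgeR adjusted p = 0.97). With 1 library left out it ranged from 0.05 (without WT replicate 3) to 0.49 (without WT replicate 2). The ratio of Hspe1 to Hspd1 was taken from log2 CPM with a prior count of 2. As a plain ratio it was 0.252, 0.452 and 0.200 in WT and 0.278, 0.394 and 0.525 in Slc7a5-KO. On the log2 scale the ratio was -1.82 ± 0.61 in WT and -1.37 ± 0.46 in Slc7a5-KO (SD, n = 3), a difference of 0.44 ± 0.44 (SE; 2-sided exact permutation p = 0.4, where 0.1 is the smallest this design can give).

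The levels of this pair are uncertain because both genes have near-identical copies. Reads that map to several places are listed as 0 in every count table, so the tables hold unique reads only. Of all 50-base windows along the longest coding transcript, 44.8% in Hspd1 and 44.8% in Hspe1 also occurred exactly in transcripts of other annotated genes. The length of 50 bases was a choice, since the read length is not given. Both strands were searched, so overlaps with a gene on the opposite strand at the same place count too. Such overlaps are no copies, and their part in these shares was not computed. Annotated pseudogenes made up 9 of the 9 other genes for Hspd1 and 5 of the 7 for Hspe1. The share was 4.10% for Hspa9, 1.55% for Clpx and 0.22% for Trap1, and 0 for Lonp1, Clpp, Gdf15 and Fgf21. Those pseudogenes that the count tables list held at most 2 reads per library for Hspd1 and at most 1 for Hspe1. Adding them, an alternative chosen after the data were seen, moved no library's value by more than 0.654%. The count tables list only 4 of the pseudogenes for each gene, and reads that match a gene and a copy equally are counted for neither. This addition therefore cannot gauge the reads lost. The 2 genes also overlap by 112 exonic bases on opposite strands, and the counts used keep the strands apart. With both strands counted together the log2 fold change of Hspe1 was 0.25.

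**Figure D2:**
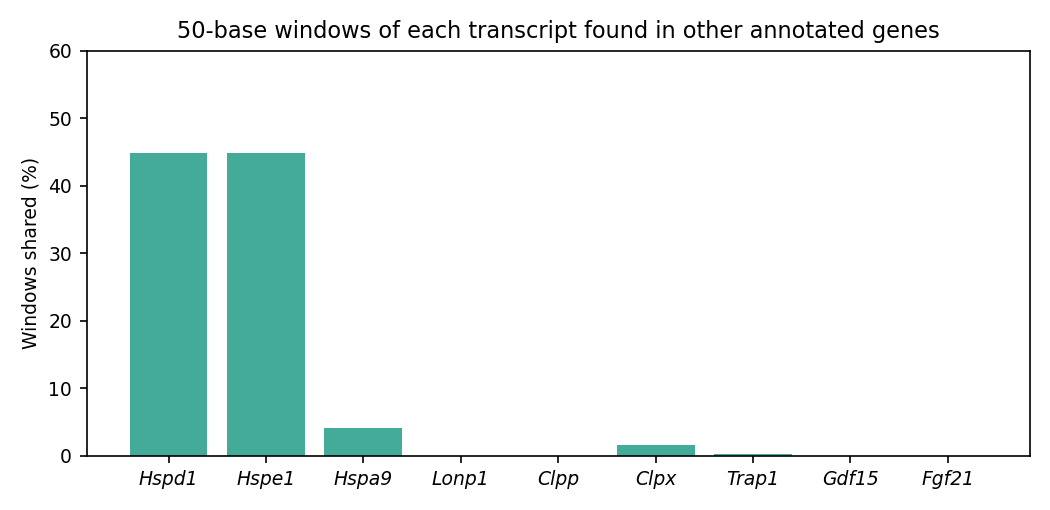
Share of 50-base windows (%) along the longest coding transcript of each member that occur exactly, on either strand, in another annotated gene. Overlaps with a gene on the opposite strand are included. Hspd1 and Hspe1 stand at 44.8% each and the other 7 members at 4.10% or less.

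In the main comparison Hspa9 had the smallest p of the 9 members and did not pass. It encodes mortalin, the matrix HSP70 that pulls proteins through the import channel, and lies on chromosome 18. Its levels were 174, 168 and 164 CPM in WT, a narrow range, and 218, 173 and 189 CPM in Slc7a5-KO. Slc7a5-KO replicate 1 stood highest, while Slc7a5-KO replicate 2 lay between WT replicates 1 and 2. This gave a log2 fold change of 0.20 ± 0.13 (SE), with an interval from -0.07 to 0.46 (edgeR unadjusted p = 0.14, adjusted p = 0.88). With 1 library left out it ranged from 0.10 (without Slc7a5-KO replicate 1, the highest) to 0.27 (without Slc7a5-KO replicate 2). The latter fit gave an edgeR unadjusted p of 0.057 and an adjusted p of 0.80.

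Trap1 (chromosome 16, 4039971 to 4077827, minus strand), a matrix chaperone of the HSP90 family, was at 71.9, 62.8 and 82.5 CPM in WT against 68.7, 75.0 and 68.1 CPM in Slc7a5-KO. All 3 Slc7a5-KO values lay within the WT range. The log2 fold change was -0.04 ± 0.14 (SE), with an interval from -0.33 to 0.26 (edgeR adjusted p = 0.99).

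The 3 protease genes likewise overlapped between the groups. Lonp1 (chromosome 17, 56614297 to 56626887, minus strand) encodes the LON protease, which degrades oxidised and misfolded matrix proteins. It stood at 49.0, 34.3 and 46.9 CPM in WT and at 45.3, 46.0 and 37.4 CPM in Slc7a5-KO, so the WT libraries spanned all of the Slc7a5-KO values. Between the groups Lonp1 differed by -0.01 ± 0.17 (SE, log2), with an interval from -0.37 to 0.34 (edgeR adjusted p = 0.999). In the female libraries the mean log2 CPM differed by 0.26 and in the males by -0.06 (Slc7a5-KO minus WT, 1 or 2 libraries a side, not tested).

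Clpp (chromosome 17, 56990305 to 56996188, plus strand), the proteolytic core of the CLPXP protease, was at 105, 107 and 92.0 CPM in WT and at 98.9, 110.1 and 100.4 CPM in Slc7a5-KO. WT replicate 3 was lowest and Slc7a5-KO replicate 2 highest, with the other 4 libraries between them. Clpx (chromosome 9, 65294260 to 65330658, plus strand) encodes the ATPase that unfolds proteins and feeds them to CLPP. Its levels were 27.0, 39.7 and 33.6 CPM in WT against 31.9, 26.5 and 31.6 CPM in Slc7a5-KO. The highest Clpx value was in a WT library, replicate 2, and the lowest in Slc7a5-KO replicate 2. For Clpp the log2 fold change was 0.03 ± 0.13 (SE), with an interval from -0.25 to 0.30 (edgeR adjusted p = 0.995). For Clpx it was -0.16 ± 0.18 (SE), with an interval from -0.54 to 0.23 (edgeR adjusted p = 0.96). Dropping 1 library put Clpx between -0.29 (WT replicate 1 dropped) and -0.01 (WT replicate 2 dropped), and at -0.08 with Slc7a5-KO replicate 2 dropped.

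The ratio of Clpp to Clpx, also taken from log2 CPM, was 3.87, 2.70 and 2.74 in WT and 3.10, 4.15 and 3.17 in Slc7a5-KO. The log2 ratio differed by 0.17 ± 0.22 (SE), which did not exceed the spread (2-sided exact permutation p = 0.5, n = 3 per group). WT replicate 1 and Slc7a5-KO replicate 2 held the highest ratios.

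**Figure D3:**
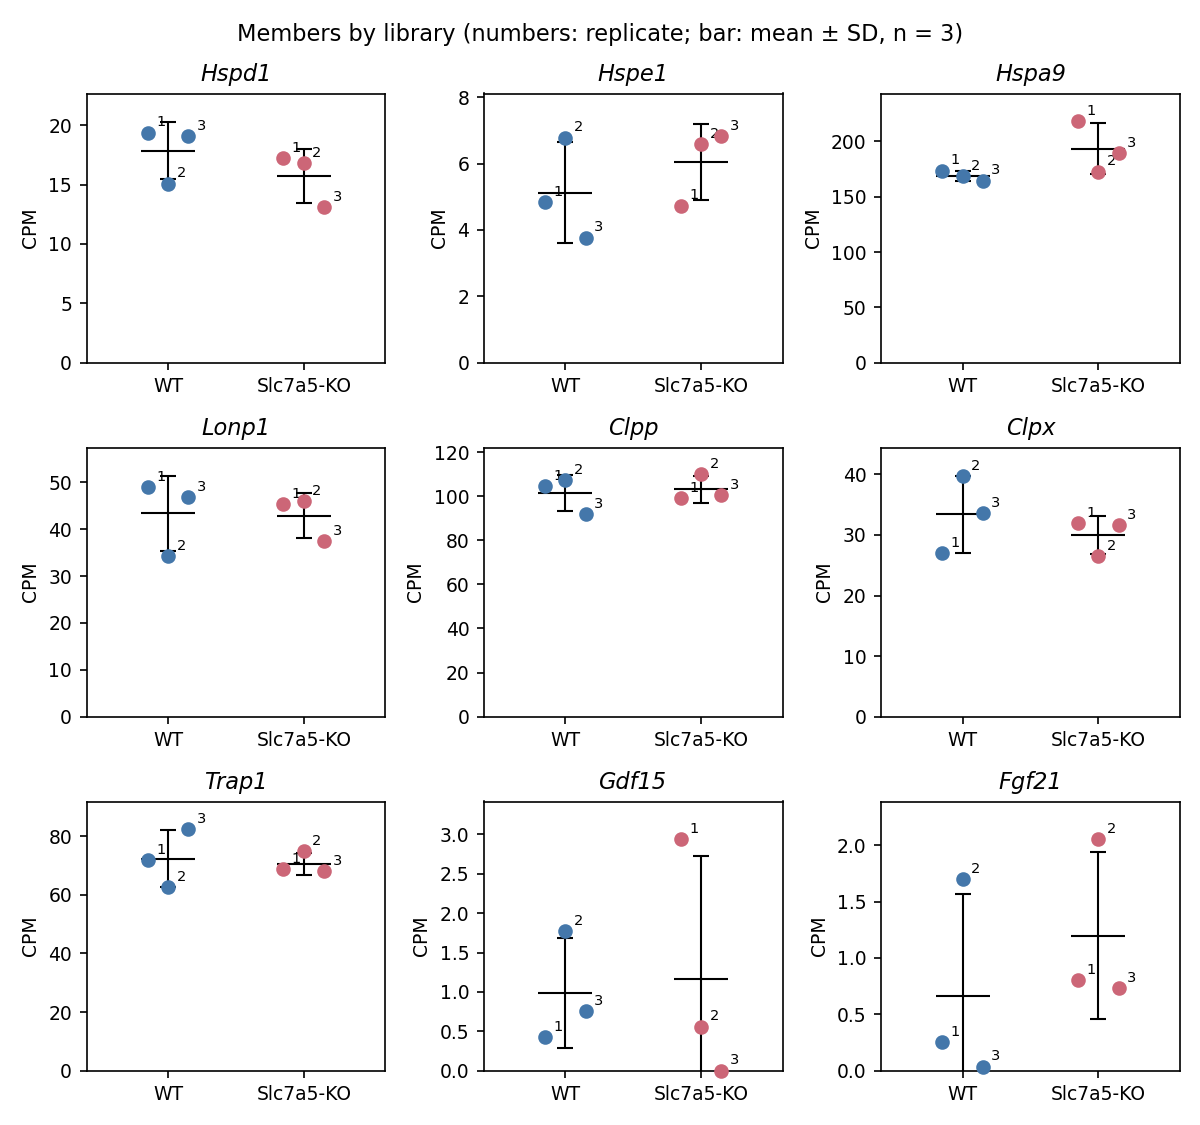
CPM (TMM-scaled) of the 9 members in each library, 1 panel per gene with its own vertical axis from 0, points numbered by replicate and bars giving mean ± SD (n = 3, cut at 0). In each of the 9 panels the WT (blue) and Slc7a5-KO (red) points overlap, and Gdf15 and Fgf21 scatter most.

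The mitokine genes were barely transcribed and varied far more between libraries than the other members. Gdf15 (chromosome 8, 70629393 to 70632456, minus strand) had 15, 49 and 21 reads in WT replicates 1 to 3 and 95, 15 and 0 reads in Slc7a5-KO replicates 1 to 3. That is 0.42, 1.77 and 0.76 CPM against 2.94, 0.56 and 0 CPM. The highest and the lowest library were thus both in the group labelled Slc7a5-KO. The 0 of Slc7a5-KO replicate 3 allows up to 3 reads, or 0.22 CPM at its depth, which is below the level in the other 5 libraries; this limit covers counting error only. Gdf15 differed by 0.28 ± 1.13 (SE, log2), with an interval from -2.09 to 2.65 (edgeR adjusted p = 0.99). Leaving out Slc7a5-KO replicate 1 gave -1.71 and leaving out WT replicate 2 gave 1.01, so no direction can be given.

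Fgf21 (chromosome 7, 45613886 to 45615490, minus strand) had 9, 47 and 1 reads in WT and 26, 55 and 10 reads in Slc7a5-KO. In CPM it was 0.25, 1.70 and 0.036 in WT and 0.80, 2.06 and 0.74 in Slc7a5-KO. WT replicate 2 exceeded all but 1 of the Slc7a5-KO libraries. Fgf21 differed by 0.86 ± 1.15 (SE, log2), with an interval from -1.55 to 3.28 (edgeR adjusted p = 0.97). Leaving out 1 WT library gave 0.47, 2.99 and 0.30 for replicates 1, 2 and 3, leaving out Slc7a5-KO replicate 2 gave 0.21, and no setting made it pass. Without WT replicate 2 the edgeR unadjusted p was 0.051 and the adjusted p 0.96. In the female libraries the mean log2 CPM differed by -1.07 and in the males by 3.49 (Slc7a5-KO minus WT, not tested), so the sign differed between the sexes, each with 1 library on 1 side.

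The spread of these 2 genes, as the SD in percent of the mean, was 71.1% in WT and 134% in Slc7a5-KO for Gdf15, and 136% and 62.0% for Fgf21. In the other 7 members it was 2.72% to 29.9% in WT and 5.47% to 18.9% in Slc7a5-KO. An interval as wide as that of Fgf21 reaches a 9.70-fold rise, so the data set no useful bound on either mitokine gene. Their intervals contrast with those of the chaperones and proteases, which ended at 1.17-fold (Clpx) to 1.95-fold (Hspe1) on the upper side.

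**Figure D4:**
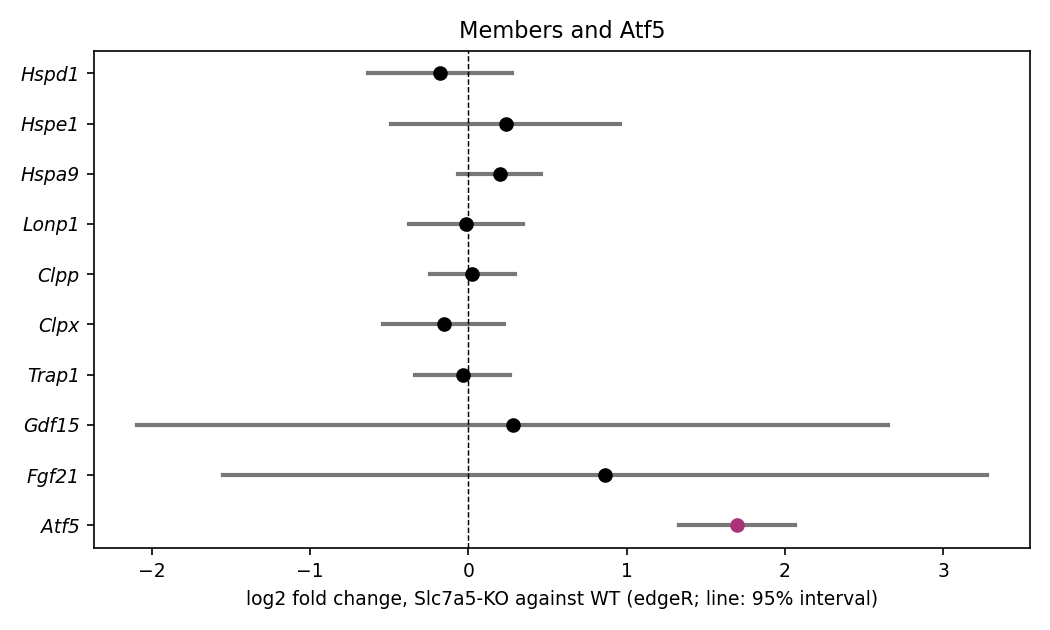
Log2 fold change (Slc7a5-KO against WT, edgeR) of the 9 members and Atf5, points with 95% intervals as lines and a dashed line at 0. All 9 member intervals cross 0, those of Gdf15 and Fgf21 are the widest, and the Atf5 interval runs from 1.33 to 2.06.

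Receptors for the mitokines were listed alongside. Gfral, the receptor of GDF15, had 0 reads in all 6 libraries. Klb, the coreceptor of FGF21, had 0 reads in 4 libraries and 9 and 11 reads in Slc7a5-KO replicates 2 and 3, and neither gene passed the filter. The remaining 4 of the 6 genes were tested and none passed. Fgfr3 and Fgfr1, receptors of the FGF family, had log2 fold changes of -0.15 ± 0.17 and -0.04 ± 0.14 (SE; edgeR adjusted p = 0.96 and 0.99).

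Levels per length set the members apart from each other. The scale here is RPKM, CPM per kilobase of exon, averaged over the 6 libraries. Clpp was highest at 83.6, followed by Hspa9 at 42.0, Trap1 at 27.8, Lonp1 at 9.87, Clpx at 9.07, Hspd1 at 6.35, Hspe1 at 3.79, Fgf21 at 0.98 and Gdf15 at 0.58. Ranges over the libraries did not overlap between neighbours in this order, apart from Lonp1 with Clpx and Fgf21 with Gdf15. Clpp stood higher than 97.5% of all genes tested and Gdf15 higher than 17.6%. The places of Hspd1 and Hspe1 in this order rest on unique reads and on the length used. All annotated exons of Hspe1 together span 1474 bases and its longest coding transcript 774. For Hspd1 these lengths are 2642 and 2423, so the order of these 2 genes can depend on that choice. Levels per transcript length were not computed.

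The rest of the mitochondrial quality control machinery was read from lists. Of 12 further chaperones and co-chaperones, 0 passed in either direction, with a median log2 fold change of 0.06. Clpb, a disaggregase of the space between the membranes, had a log2 difference of 0.26 ± 0.17 (SE; edgeR adjusted p = 0.89). Hscb, a co-chaperone of iron-sulfur cluster assembly, differed by 0.45 ± 0.34 on that scale (edgeR adjusted p = 0.93). Grpel1 and Dnaja3, the exchange factor and J-protein that work with mortalin, were chosen after their values were seen and had -0.15 ± 0.19 and 0.09 ± 0.16.

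Of 18 other mitochondrial proteases and peptidases, 0 passed, with a median of -0.05. Parl, the rhomboid protease of the inner membrane that cleaves PINK1 and PGAM5, had the smallest p among them. Its mean was 9.96 ± 2.62 CPM in WT against 17.2 ± 0.77 CPM in Slc7a5-KO (SD, n = 3). The groups did not overlap, but the gene missed the threshold over all genes (log2 0.79 ± 0.25, edgeR unadjusted p = 0.0049, adjusted p = 0.56). Yme1l1, a protease of the inner membrane, had -0.30 ± 0.15 (edgeR adjusted p = 0.81). Oma1, the protease that relays mitochondrial stress by cleaving DELE1, had -0.01 ± 0.41 and was chosen after its values were seen.

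Of 27 genes of protein import, 26 were tested and 0 passed, with a median of -0.03. Tomm40l and Timm8b, an import channel and a small chaperone of the intermembrane space, had -0.49 ± 0.17 and -0.42 ± 0.15 (edgeR adjusted p = 0.61 and 0.66). Mitochondrial content markers gave 0 of 20 and a median of -0.07, with Mdh2, malate dehydrogenase, at 0.28 ± 0.15 and Vdac3, an outer membrane channel, at -0.70 ± 0.41 (edgeR adjusted p = 0.83 and 0.86). Antioxidant genes gave 0 of 9 and a median of -0.09, with Prdx5 and Nnt at -0.26 ± 0.13 and 0.48 ± 0.25 (edgeR adjusted p = 0.82 and 0.83). Of 13 mitochondrially encoded mRNAs, 11 were tested and 0 passed, with a median of 0.03. Mean levels of those tested ran from 0.56 and 0.27 CPM in WT and Slc7a5-KO (mt-Co2) to 29675 and 26581 CPM (mt-Co1). The counts hold unique reads only, so a low count here need not mean low transcription, and the median includes genes with few reads. Within that list mt-Nd3 had 3.10 ± 1.17 and 5.52 ± 0.77 CPM (edgeR adjusted p = 0.81), and mt-Cytb had a log2 difference of 0.17 ± 0.14. Cytosolic heat shock chaperones, which heat shock factors are known to drive, gave 0 of 15 and a median of 0.03, with Dnaja1 at -0.27 ± 0.17 and Dnajb1 at 0.20 ± 0.14 (edgeR adjusted p = 0.89 and 0.90).

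**Figure D5:**
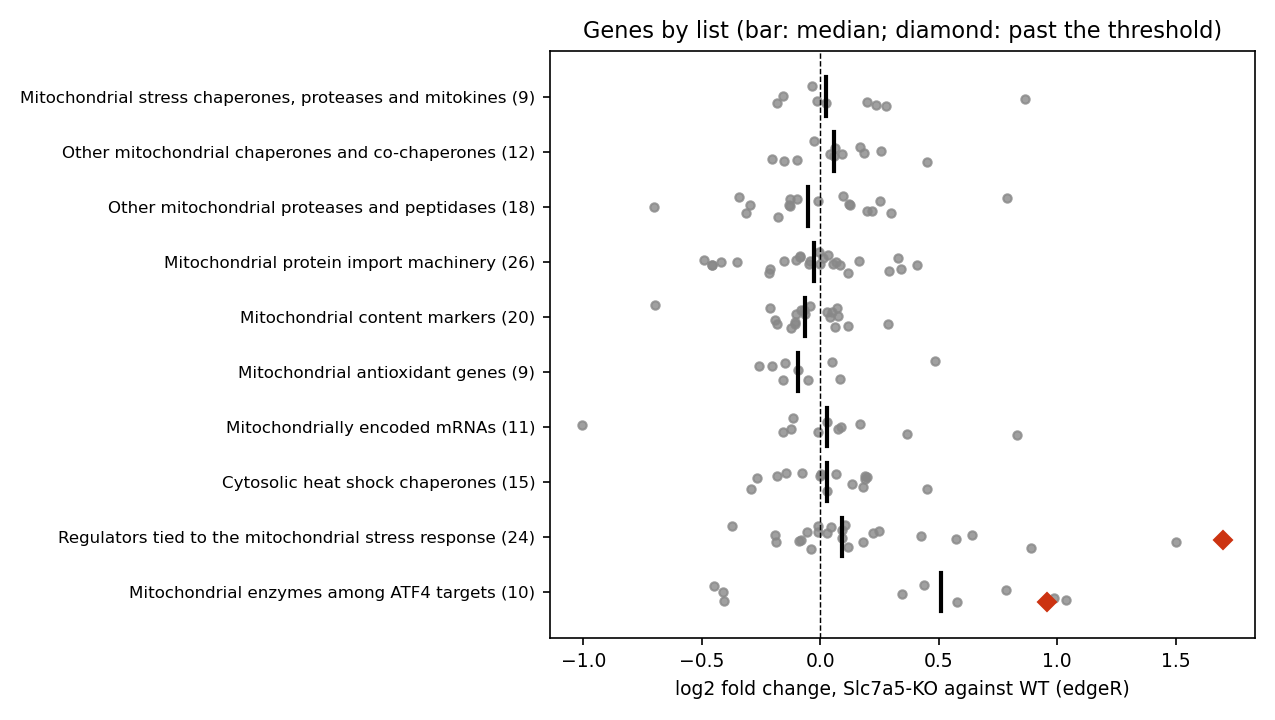
Log2 fold changes (Slc7a5-KO against WT, edgeR) of the genes tested in 10 lists, 1 point per gene, with the number tested in brackets, the median as a bar and genes past the threshold as red diamonds. Medians lie between -0.09 and 0.09 in 9 lists and at 0.51 for the list labelled mitochondrial enzymes among ATF4 targets, and the diamonds are Atf5 and Shmt2.

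Among 24 regulators tied to the response, Atf5 was the 1 that passed, and the median was 0.09. Atf4 and Ddit3, the other arms of that branch, were chosen after their values were seen. WT libraries had 376, 407 and 367 CPM of Atf4, and Slc7a5-KO libraries 543, 542 and 457 CPM (log2 0.42 ± 0.13, edgeR adjusted p = 0.53). Ddit3 stood at 26.7, 29.3 and 20.6 CPM and at 44.9, 32.7 and 36.4 CPM (log2 0.57 ± 0.19, edgeR adjusted p = 0.59). Neither passed, although their groups did not overlap. The authors' deposited table listed an adjusted p of 0.022 for Atf4 and 0.093 for Ddit3. Dele1 and Eif2ak1, which carry the signal from OMA1 to the eIF2 alpha branch, were also chosen late and had -0.04 ± 0.15 and 0.11 ± 0.14.

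The list of mitochondrial enzymes among ATF4 targets, which also holds the carriers Slc25a32 and Slc25a33, had the highest median. It was 0.51 over 10 genes, 7 of them above 0. Below 0 were Slc25a33 (-0.45), Mthfd2l (-0.41) and Slc25a32 (-0.40), named after their values were seen. The higher direction of the list was known from earlier results of these data and is no independent evidence. Shmt2, the serine hydroxymethyltransferase of the matrix, passed (38.2 ± 1.097 and 74.1 ± 7.56 CPM, log2 0.96 ± 0.14, edgeR adjusted p = 0.0098). It no longer passed without WT replicate 1 (edgeR adjusted p = 0.068) or without WT replicate 3 (edgeR adjusted p = 0.14). The count of 1 of 10 was 2 with DESeq2 and 3 with no filter on low counts. These settings also called more genes in all, 46 with DESeq2 and 71 with no filter, against 8. The authors' deposited table put 4 of the 10 at an adjusted p under 0.05, all higher: Shmt2, Aldh1l2, Aldh18a1 and Mthfd2, the last 3 of them named after their values were seen. The difference between this list and the chaperones, proteases and mitokines was not tested.

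The authors' deposited table gave the same picture for the members. None of the 9 members was among the 131 genes that the authors' deposited table put below an adjusted p of 0.05. The share of all genes that these 131 make up was not computed, here or for the lists counted from that table. Counts from it thus have no background share beside them. Hspa9 had the smallest adjusted p of a member in the authors' deposited table, 0.54, and Fgf21 had none listed.

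Markers of cell types moved between libraries as well. Summed choroid plexus markers ran from 2560 to 5727 CPM in WT and from 44.3 to 4878 CPM in Slc7a5-KO, with the low end in Slc7a5-KO replicate 2, and 10 of 10 markers had a log2 fold change below 0. Ttr, the most abundant of them, stood at 15.5 CPM in that library and at 2158 CPM or more in the others. Purkinje cell markers summed to 6042 to 7213 CPM in WT against 4210 to 6255 CPM in Slc7a5-KO, with 9 of 10 below 0. Microglia markers summed to 319 to 407 and 396 to 458 CPM, with 9 of 10 above 0. Summed astrocyte markers ran from 4226 to 4783 CPM in WT and from 4008 to 4139 CPM in Slc7a5-KO. This was the only cell type sum in which the groups did not overlap, and it was not tested. Granule neuron markers had 8 of 10 below 0, astrocyte markers 7 of 10, ependymal markers 8 of 10, endothelial markers 5 of 10 and oligodendrocyte markers 4 of 10. None of these 80 markers passed edgeR's test as fitted here, but some did in other settings. Purkinje cell markers gave 2 with no filter, 1 with DESeq2 and 2 with a sex term, ependymal markers 2 with no filter and 1 with DESeq2, microglia markers 1 in both of those settings and astrocyte markers 1 with no filter. Over all genes the calls rose too, from 8 to 71 with no filter, 46 with DESeq2 and 16 with a sex term. The authors' deposited table put 3 Purkinje cell and 2 ependymal markers lower, and 1 microglia and 1 astrocyte marker higher, at an adjusted p under 0.05. The part of these cell types in the members' values was not tested. In whole tissue, fewer cells of a type and less RNA per cell cannot be told apart.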

How the data were processed

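The authors deposited raw read counts per gene, 1 table per library. Per the labels' protocols, libraries were built from total RNA (Lexogen SENSE mRNA-Seq V2); per the submitters' processing notes, STAR 2.5.4, GRCm38 (mm10), R 3.2.4 and DESeq2 1.10.1 were used. No source used here gives the annotation release. The authors' deposited comparison table holds, per the file headers, mean normalised counts (a signal), log2 fold changes, a Wald score with a standard error, and p-values.

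Column 4 (reverse strand, 94.8% to 95.8% of both strand columns) was used. Reads in no gene or several were 19.5% to 22.2% and entered neither library sizes nor tests. Symbols matched 46488 of 46983 identifiers; coordinates and exon lengths come from GENCODE M21 (GRCm38). Genes were filtered with filterByExpr (minimum count 10, total 15), scaled by TMM and tested across all 16851 genes with edgeR 4.0.16 in R 4.3.3 (quasi-likelihood, robust, 2-sided, Benjamini-Hochberg, threshold 0.05). Log2 CPM used a prior count of 2. The biological coefficient of variation was 31.6%. The fit was tested on simulated counts. Alternatives were RLE or no scaling, no filter, DESeq2 1.42.0, limma-voom (limma 3.58.1), both strands, a replicate block, a sex term and leaving out each library. Replicate numbers do not come with a stated pairing.

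Members and lists were chosen with earlier results of these data known. All members are named; from each other mitochondrial list up to 3 genes past the threshold are named, or the 2 with the smallest p, and any other named gene is marked as a later choice. No label ties a library to a single animal.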

Additional observations from a re-analysis of the deposited data

How the results depend on the processing

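In each alternative run, 0 of 9 members passed the threshold, and the smallest adjusted p of any member was 0.72. Direction was kept in 111 of 126 member results. Fgf21 kept its direction in each but varied in size, with 1.97 by limma-voom (unadjusted p = 0.13) and 1.76 by edgeR with the replicate block (unadjusted p = 0.19). Lonp1 (-0.01 in the main comparison) was 0.0063 with library size only, 0.015 with limma-voom and 0.11 with a sex term, and spanned -0.15 to 0.084 over the fits leaving out 1 library. Over those fits Trap1 spanned -0.13 to 0.065, and it was 0.041 with a sex term, while Clpp spanned -0.042 to 0.071. Gdf15 was -0.28 with limma-voom, -0.975 with the replicate block and -0.16 with a sex term, and spanned -1.71 to 1.01. Fgfr3 was 0.0063 and Fgfr1 0.065 with a sex term, and Fgfr1 spanned -0.14 to 0.050 with 1 library left out. The cause of these changes of sign was not tested.

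The number of all genes past the threshold, 8, was 71 with no filter, 46 with DESeq2 and 16 with a sex term, and 3 to 20 when 1 library was left out. It was 20 without Slc7a5-KO replicate 1 or 2, 5 without WT replicate 1 or Slc7a5-KO replicate 3, and 3 without WT replicate 3. With the replicate block it was 6, with 0 members. Libraries with the same number did not deviate together (correlations of -0.06 to -0.03), and none matched best with its own number, so the numbers were not taken as pairs. The Hspe1 to Hspd1 log2 ratio kept its sign, from 0.19 to 0.78, when 1 library was left out, and the Clpp to Clpx ratio from 0.03 to 0.34, where the smallest possible p was 0.2. Slc7a5 was higher (log2 1.22, edgeR adjusted p = 0.010) without Slc7a5-KO replicate 2. At these depths the mitokine genes rest on 0 to 95 reads per library, which limits any statement on them.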
